A study of Mus musculus with 104 samples.

Results

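Aldh1a1-high and Aldh1a1-low neurons were compared among the control libraries of a patch-seq series of mouse substantia nigra, in which the content of a single neuron is drawn into a glass pipette and sequenced. The libraries were selected on their own Aldh1a1 value: of the 66 libraries titled control, out of 104 in all, 25 had an Aldh1a1 level of at least 500 CPM (counts scaled to a library total of 1000000 gene counts) and 41 a lower one. Aldh1a1 is therefore described here and is not a finding. The other 38 libraries are titled experiment, and the design text speaks of picking neurons with inclusions of the reporter α-Syn-6H-EGFP from acute slices of the substantia nigra pars compacta. Which neurons served as control, their genotype, strain and age, and the animal each came from are not stated in the labels used here. The cell type label of all libraries is dopaminergic neuron.

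Aldh1a1 encodes a cytosolic aldehyde dehydrogenase that oxidises the reactive aldehyde formed from dopamine and makes retinoic acid from retinaldehyde. In the midbrain it marks the ventral tier of the pars compacta, whose neurons project to the dorsal striatum and are among the first to be lost in Parkinson disease. Neurons of the dorsal tier and of the ventral tegmental area mostly carry Calb1 and other markers in its place. Within the ventral tier, a subset of neurons also carries Anxa1.

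Among the high libraries Aldh1a1 ran from 532 CPM through a median of 1491 to 12300, and among the low ones from 0 through 31.2 to 410. The values formed a continuum with no gap at the threshold. The 3 libraries just inside it had 532, 620 and 685 CPM (control titles 22, 54 and 39) and the 3 just outside 327, 341 and 410 CPM (control titles 69, 2 and 29). In 15 low libraries no Aldh1a1 read was counted. Control titles change letter case after number 37. The libraries up to there are called title set 1 and the later ones title set 2, although the labels do not call them batches. Set 1 held 15 high and 16 low libraries and set 2 10 and 25. The highest values lay in set 1, with a median of 2376 CPM in its high libraries against 842 in set 2.

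**Figure D1:**
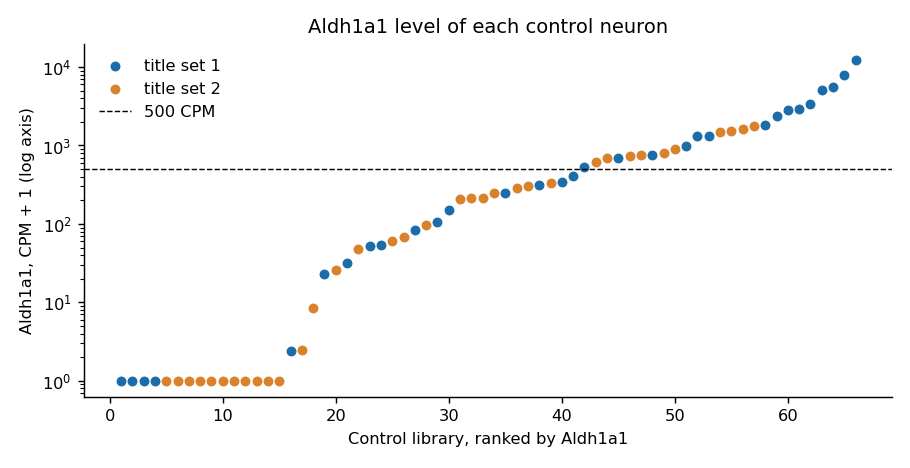
Aldh1a1 in each of the 66 control libraries, ranked from lowest to highest on the horizontal axis, as CPM + 1 on a logarithmic vertical axis. Each point is a neuron coloured by title set and the dashed line is the threshold of 500 CPM; 25 points lie above it, 41 below, and no gap separates them.

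Each library is 1 neuron and no animal is named, so each side counted as 1 sample. No test between the sides was made, and no p-value or standard error is given. Levels are pooled CPM, the summed counts of a side scaled to a common total, and ratios are high over low. Their 95% intervals reflect only the counting of reads. The spread from neuron to neuron was much wider and is shown by the lowest, median and highest library and by the share of the 1025 pairs of a high and a low library in which the high library had the larger CPM, with ties split evenly, so that 50% means no preference.

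Gene counts per library ran from 161148 to 2577694 on the high side (median 1024801) and from 153770 to 2537783 on the low side (median 1040495). After thinning to 400000 counts, which left out 4 high and 2 low libraries, the median number of genes detected was 8653 in high libraries and 7552 in low ones. The median share of mitochondrially encoded genes was 2.40% in high and 3.44% in low libraries, and that of spike-in RNAs 0.192% and 0.301%. Glial markers (of astrocytes, microglia and oligodendrocytes), summed per library, had median levels of 1205 and 1249 CPM. Within the title sets the median of the high side lay lower, at 1306 against 2564 in set 1 and 773 against 928 in set 2. The highest sums were 4710 CPM on the high side and 10503 on the low side in set 1. In set 2 they were 11569 and 5024, so pooled levels need not follow the medians. In set 1 the median oligodendrocyte sums were 870 and 1805 and the GABAergic sums 261 and 518. Set 2 went the other way, with oligodendrocyte sums of 305 and 290 and GABAergic sums of 286 and 185. Over all controls the GABAergic medians were 261 and 249. The part that these quantities play in the gene ratios below was not tested.

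Marker genes of a dopaminergic neuron were present on both sides, but some low libraries fitted the label less well. Th, the rate-limiting enzyme of dopamine synthesis, Ddc, the decarboxylase, and Slc6a3 and Slc18a2, the plasma membrane and vesicular transporters, were counted in all 66 libraries. Th (GRCm38, chromosome 7, 142892752 to 142931128, minus strand) ran from 3308 to 17764 CPM in high libraries (median 7874) and from 1128 to 27011 in low ones (median 9439). Its pooled ratio of 0.817 was 1.21 in title set 1 and 0.719 in set 2, so it had no common direction. The ratios of Slc6a3, Slc18a2 and Ddc were 1.04, 0.986 and 1.23, and Ddc was higher in both sets (1.46 and 1.29). The low side reached further down in these genes: 4 low libraries lay below the lowest high library in Slc6a3, 5 in Ddc, 3 in Th and 1 in Slc18a2. Control title 7, a low library, held 1517 CPM of summed GABAergic markers against 1135 of Th. Control title 5, also low, held 982 against 1128. Their oligodendrocyte sums were 4743 and 3807 CPM. On the high side the highest GABAergic sum was 1441 CPM, in control title 9, with Th at 4674. Libraries with less than 1000 CPM of Slc6a3 numbered 6 on the low side and 1 on the high side, and results are also given without them where they change. All of them lay in title set 1. In set 2 the lowest Slc6a3 value was 3379 CPM on the high side and 1703 on the low side. The part of these libraries in differences between set 1 and set 2 ratios was not tested. The split by Slc6a3 was chosen after seeing the data.

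Of 9093 expressed genes, 560 (6.16%) were called higher in the Aldh1a1-high libraries and 670 (7.37%) lower. A gene was called when it stood at least 1.5-fold apart by both the pooled CPM and the equally weighted mean of the libraries and had the same direction in both title sets. Without the libraries low in Slc6a3 the counts were 642 and 623, sharing 460 higher and 501 lower genes with the full set. On the scale of mean log2(CPM + 1), the median of all expressed genes stood at 0.31 before it was set to 0. There the split turned to 1324 higher and 1029 lower, and with TMM scaling of the mean library CPM to 881 and 732. Each of these used 1 measure, so agreement of both weightings was not asked. Mean library CPM alone, without TMM, gave 772 and 882. The balance between higher and lower genes therefore has no fixed direction. Among the 30 control libraries at or above the median in genes detected, 243 of the 560 and 266 of the 670 genes were called again. Calls were rarer at higher levels: of 4084 genes with a pooled CPM of at least 50, 89 were called higher and 119 lower. The gene lists below were not matched in level to all expressed genes, so the shares set beside them are a rough background.

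Aldh1a7 and Anxa1 were the ventral-tier genes furthest above the low side. Aldh1a7 encodes a cytosolic aldehyde dehydrogenase closely related to Aldh1a1 and also lies on chromosome 19 (20692953 to 20727562, minus strand). It ran from 0 through a median of 55.5 to 609 CPM in high libraries and from 0 through 0 to 386 CPM in low ones. A count was present in 20 of 25 high and 9 of 41 low libraries. Pooled, it stood at 81.8 against 13.5 CPM, a ratio of 6.05 (interval 5.54 to 6.62), with 2.74 in title set 1 and 10.3 in set 2. The high library was above the low one in 82.0% of pairs, so most but not all neurons were separated.

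The sequences upstream of these paralogs are shown because their transcripts stood high in the same libraries. RefSeq gives 2 starts for Aldh1a1 and 1 for Aldh1a7 on GRCm38. The lines hold the 150 bases before the second start of Aldh1a1, chr19:20601818-20601967 on the plus strand, and before the start of Aldh1a7, chr19:20727557-20727706 on the minus strand. Each reads 5′ to 3′ toward the gene, and the capitals mark the longest run shared by both.
Aldh1a1 start 2: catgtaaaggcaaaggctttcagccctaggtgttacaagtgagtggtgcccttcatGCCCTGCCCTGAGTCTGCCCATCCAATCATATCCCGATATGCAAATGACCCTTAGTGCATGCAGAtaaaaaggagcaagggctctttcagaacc
Aldh1a7: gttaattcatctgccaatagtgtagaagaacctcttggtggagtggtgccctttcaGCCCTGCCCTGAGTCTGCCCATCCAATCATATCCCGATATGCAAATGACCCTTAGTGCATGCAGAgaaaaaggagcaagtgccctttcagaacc
The shared run is 65 bases long, and 108 of the 150 positions (72%) are identical. The first start of Aldh1a1 shares no run longer than 8 bases with Aldh1a7. The run holds the octamer ATGCAAAT, which, searched on both strands, occurs in 570 of 32851 RefSeq promoter windows of 300 bases (1.74%). A match is a description of letters, not of a bound site.

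Reads can be shared between such close paralogs, and the labels used here do not state how reads matching more than 1 gene were handled. Of all stretches of 50 bases in the 2066-base Aldh1a7 transcript, 7.49% also occur in an Aldh1a1 transcript, and of stretches of 75 bases 2.51%. High libraries held a median of 2.04 Aldh1a7 counts per 100 Aldh1a1 counts, with a range from 0 to 34.4, so the ratio of the 2 genes was not constant. The value of Aldh1a7 is uncertain to that extent.

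Anxa1, annexin A1, a phospholipid-binding protein (chromosome 19, 20373428 to 20390944, minus strand), was counted in 12 of 25 high libraries and in 1 of 41 low ones. It ran from 0 through 0 to 754 CPM in high libraries, and pooled it stood at 70.2 against 1.25 CPM. All 58 counts of the low side came from control title 2, whose Aldh1a1 value of 341 CPM lay just below the threshold. The pooled ratio was 56.2 (43.3 to 74.3), with 27.7 in title set 1. In set 2 the low side had 0 counts, and against a floor of 3 counts over that side Anxa1 was at least 242-fold higher. The 12 high libraries with Anxa1 had a median Aldh1a1 of 2091 CPM (range 532 to 12300), and the 13 without had 795 CPM (620 to 7837), so the ranges overlapped. Of the 12 libraries with Anxa1, 9 also held Calb1 counts and 10 Calb2 counts, beside 19 and 16 of all 25 high libraries.

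Lmo3, a LIM-domain transcriptional cofactor (chromosome 6, 138362918 to 138581968, minus strand), was the other ventral-tier gene called higher. It ran from 0 through 228 to 744 CPM in high libraries and from 0 through 27.2 to 430 in low ones. The pooled ratio was 3.88 (3.71 to 4.07), with 2.28 in set 1 and 5.29 in set 2. Of the 25 high libraries 23 exceeded the low median, and 1 low library exceeded the high median.

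No other gene of the ventral-tier list was called higher. Aldh1a1 is not on the list, and 13 of its 16 genes were expressed. Of these, 3 (23.1%) were called higher, 2 (15.4%) lower and 8 neither, beside 6.16% and 7.37% of all expressed genes. Anxa1 and Aldh1a7 passed the expression filter, a count in at least 25% of the libraries of either side, only through the high side. The median log2 ratio was -0.17, beside -0.004 for all expressed genes. The median was 0.48 in title set 1 and -0.08 in set 2, 0.66 on the scale of mean log2(CPM + 1), and 0.68 in the experiment libraries described further on, where 10 of the 13 genes stood higher by pooled CPM. For the control libraries, no direction is therefore given for the list. Ndnf, a secreted neuron-derived factor, and Grin2c, an NMDA receptor subunit, were the lower genes, with ratios of 0.539 and 0.452. Sox6, a transcription factor of pars compacta neurons, stood at 25.7 against 44 CPM, with ratios of 1.40 in set 1 and 0.602 in set 2. Satb1, a chromatin organiser, had a ratio of 0.842, and Nrip3 had 1.14. Kcnj6, the potassium channel GIRK2, had 0.965 and Kcns3, a silent potassium channel subunit, 0.860. The growth factors Igf1 and Fgf1 had 0.850 and 0.888. Atp2a3, a calcium pump of the endoplasmic reticulum, had 1.68, with 20.6 in set 1 and 0.724 in set 2. Vcan, Tmem132d and Agtr1a did not pass the expression filter.

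Genes of the dorsal tier and the ventral tegmental area were divided. Of 15 listed genes 10 were expressed. Called higher were 0 and lower 5 (50%), beside 6.16% and 7.37% of all expressed genes. Lypd1, a modulator of nicotinic receptors (chromosome 1, 125867622 to 125913101, minus strand), ran from 0 through 0 to 42.4 CPM in high libraries and from 0 through 25.01 to 147 in low ones. It was counted in 11 of 25 high and 32 of 41 low libraries, and its ratio was 0.25 (0.216 to 0.288), with 0.257 and 0.261 within the sets. Cck, the cholecystokinin peptide, ran from 0 through 40.2 to 2207 CPM in high and from 0 through 196 to 1428 in low libraries, with a ratio of 0.470. Of the high libraries 3 exceeded the low median of Cck. The highest Cck value of all nevertheless lay in a high library. Calb2, calretinin, a calcium-binding protein, stood at 236 against 504 CPM, with ratios of 0.476 in set 1 and 0.087 in set 2.

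Tacr3, the neurokinin 3 receptor, and Adcyap1, the peptide PACAP, were called lower at 0.578 and 0.623. Neither kept that direction under every setting: Tacr3 stood higher among controls 15 to 37 (log2 ratio 0.77), and Adcyap1 without the libraries low in Slc6a3 (2.90). Calb1 itself, the usual counterpart of Aldh1a1, did not divide the sides. It ran from 0 through 32.6 to 4132 CPM in high libraries and from 0 through 64.1 to 2743 in low ones, and the high library was above the low one in 50.1% of pairs. Its pooled ratio was 1.32, or 0.890 without the highest library of each side, since control title 3 held 45.1% of the high counts. Slc17a6, the vesicular glutamate transporter 2, had a ratio of 0.999. Lpl, lipoprotein lipase, had 4.31 with 0.517 in set 2, and the cerebellins Cbln1 and Cbln4 had 0.736 and 1.62. Otx2, Neurod6, Grp, Vip and Nts did not pass the filter. Over the list, the median log2 ratio lay at -0.56, but it was 1.32 in the libraries with more genes detected and 0.41 without those low in Slc6a3, so no direction is given for the list as a whole. Lypd1, Cck and Calb2 also stood lower in the high libraries in the 13 alternatives whose direction the call did not fix, all of which reuse these libraries.

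**Figure D2:**
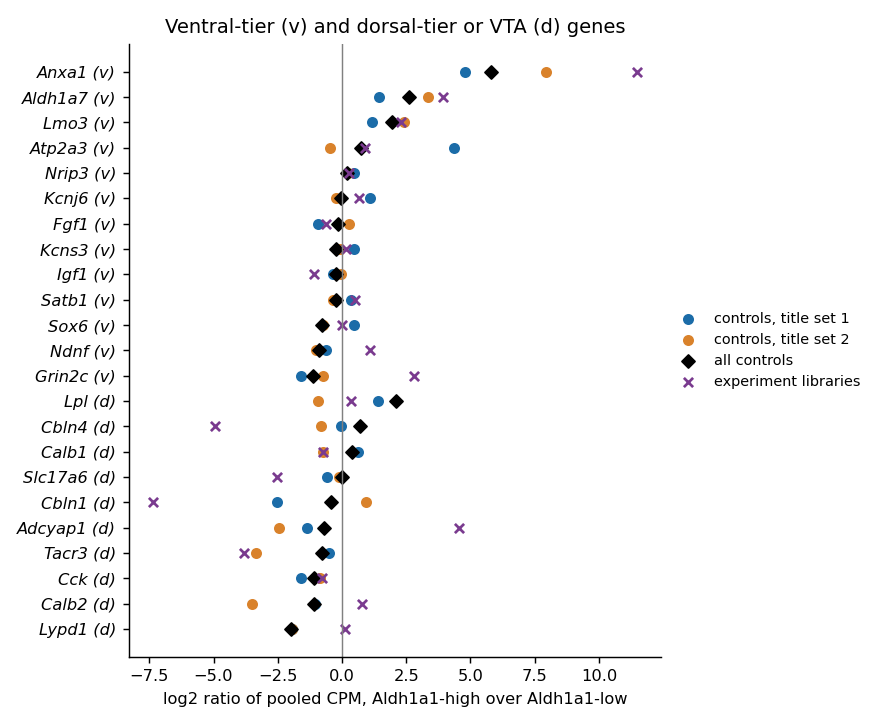
Log2 ratio of pooled CPM, Aldh1a1-high over Aldh1a1-low, on the horizontal axis for the 13 expressed ventral-tier genes (v) and 10 dorsal-tier or ventral tegmental genes (d). Black diamonds are all controls, circles the title sets and crosses the experiment libraries; Anxa1, Aldh1a7 and Lmo3 lie right of 0 in every series, and Lypd1 left of it in the control series. Where a side held fewer than 3 counts it was raised to 3.

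Genes were then ranked by how evenly they separated the neurons, taking among called genes the share of high and low library pairs in the less extreme title set. The first 14 in each direction are described. Serpine2, the secreted thrombin inhibitor protease nexin-1 (chromosome 1, 79794197 to 79861180, minus strand), ran from 225 through 1281 to 2928 CPM in high libraries and from 0 through 620 to 2078 in low ones. Its ratio was 1.89 (1.86 to 1.92), with 2.53 in set 1 and 1.85 in set 2. F2r, the thrombin receptor PAR1 (chromosome 13, 95601803 to 95618487, minus strand), ran from 38.4 through 301 to 1133 CPM and from 0 through 85.2 to 880, with a ratio of 2.17. Both genes were counted in all 25 high libraries. Srpx2, a secreted sushi-repeat protein of the X chromosome, was counted in 22 of 25 high and 16 of 41 low libraries and stood at 64.7 against 15.8 CPM. Igfbp5, a secreted binding protein for insulin-like growth factors, stood at 37 against 14.7 CPM.

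Chrna6, the nicotinic receptor subunit alpha 6 of dopaminergic neurons (chromosome 8, 27403212 to 27413944, minus strand), ran from 116 through 943 to 1656 CPM in high libraries and from 0 through 410 to 1486 in low ones. Its ratio was 1.86 (1.82 to 1.89), with 2.80 in set 1 and 1.70 in set 2, and 3 of 41 low libraries exceeded the high median. Of 6 expressed nicotinic subunits it was the one called. Chrnb2 stood at 1.51 by pooled CPM and 1.40 by equal weights, and Chrna3 and Chrna5 at 1.19 and 0.753.

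Kcnip3, a calcium-binding partner of A-type potassium channels, ran from 0 through 111 to 614 CPM in high and from 0 through 27.7 to 217 in low libraries, with a ratio of 2.85. Pcp4, a small calmodulin-binding protein, was counted in all 25 high libraries, each of which exceeded the low median of 31.2 CPM, and its ratio was 2.19. Stmn1, the microtubule-destabilising protein stathmin, had 1.51, with 23 high libraries above the low median. Sike1, a suppressor of IKK-epsilon, had 2.15, and Fam126a, hyccin, a part of a phosphatidylinositol 4-kinase complex, 2.77. Samd14 had 1.77, although among libraries with fewer genes detected its log2 ratio was -0.085.

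**Figure D3:**
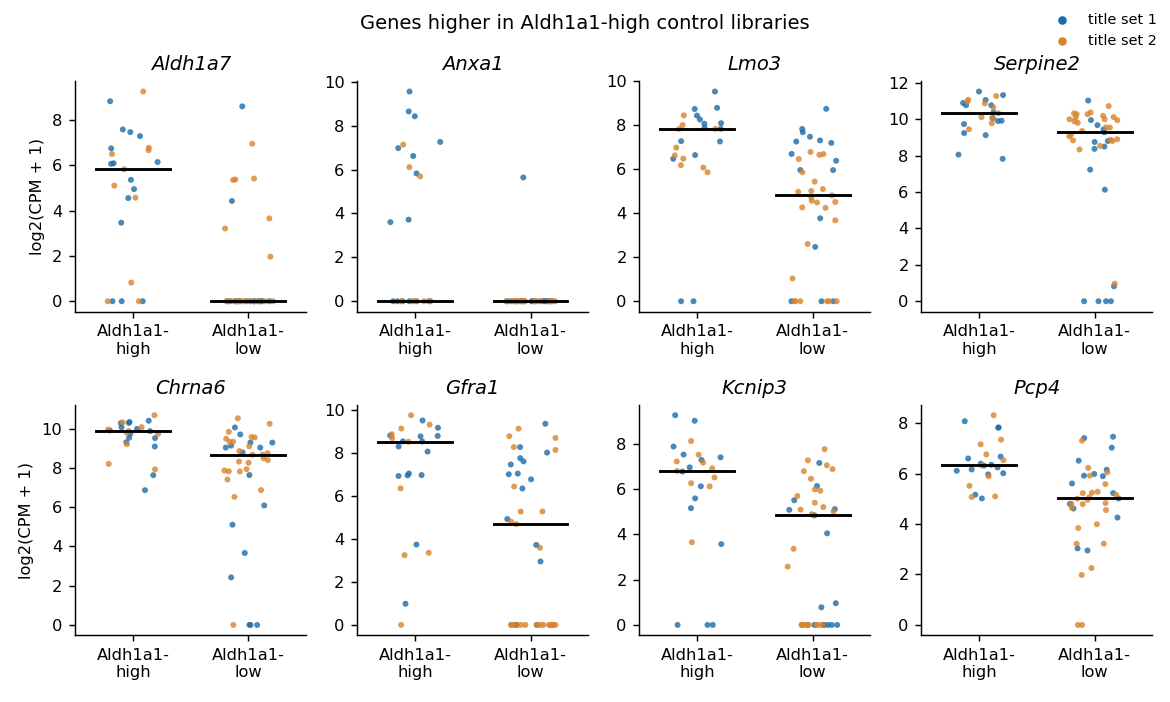
CPM of 8 genes called higher, as log2(CPM + 1) on the vertical axis, in the 25 Aldh1a1-high and 41 Aldh1a1-low control libraries. Each point is a library coloured by title set and the bar is the side's median; the medians of Anxa1 are 0 on both sides, and the clouds of the other 7 genes overlap while their medians differ.

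Co-receptors of the GDNF family stood on opposite sides. Gfra1, which binds GDNF, a survival factor of dopaminergic neurons (chromosome 19, 58235604 to 58455909, minus strand), ran from 0 through 365 to 858 CPM in high libraries and from 0 through 24.7 to 651 in low ones. It was counted in 24 of 25 and 24 of 41 libraries, with a ratio of 2.83 (2.73 to 2.93). Gfra2, which binds neurturin (chromosome 14, 70890120 to 70979838, plus strand), ran from 0 through 0 to 92.2 CPM and from 0 through 34.6 to 343. It was counted in 9 of 25 and 25 of 41 libraries, with a ratio of 0.231 (0.206 to 0.259). Both transcripts were counted together in 9 high and 11 low libraries. Of 21 expressed growth factors and receptors, Gfra1 alone (4.76%) was called higher and 6 (28.6%) lower, beside 6.16% and 7.37% of all expressed genes. Fgfr1, a fibroblast growth factor receptor, stood at 27.4 against 82.7 CPM, and 2 of 25 high libraries exceeded its low median. Nrg1, neuregulin 1, and Bdnf, brain-derived neurotrophic factor, had ratios of 0.302 and 0.479.

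Among the other lower genes, Cthrc1, a secreted collagen triple helix repeat protein (chromosome 15, 39076932 to 39087121, plus strand), ran from 0 through 0 to 59.8 CPM in high and from 0 through 57.5 to 602 in low libraries. Its ratio was 0.144 (0.129 to 0.162), and 1 high library exceeded the low median. Wnt5a, a secreted Wnt ligand, and Fstl1, a secreted glycoprotein, had ratios of 0.159 and 0.259. Gucy1b3, the beta subunit of the nitric oxide receptor guanylate cyclase, ran from 0 through 0.828 to 103 CPM and from 0 through 37.5 to 290, with a ratio of 0.307 and nearly the same value in both sets (0.339 and 0.277). Rph3a, the Rab3 effector rabphilin, had 0.665, and Syn2, synapsin II, 0.634, which turned to a log2 ratio of 0.12 at a threshold of 1000 CPM. The synaptic list as a whole had 1 of 43 genes called higher and 2 lower, with a median log2 ratio of 0.09. The actin regulators Gas7 and Cobl had 0.130 and 0.471. Control title 3 held 71.6% of the Gas7 counts of the high side, and without the highest library of each side the ratio was 0.046. Ahi1, a protein of the primary cilium, the acetyltransferase-like Nat14, the kinase Gsk3a and the co-chaperone Tomm34 had 0.625, 0.527, 0.319 and 0.502.

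**Figure D4:**
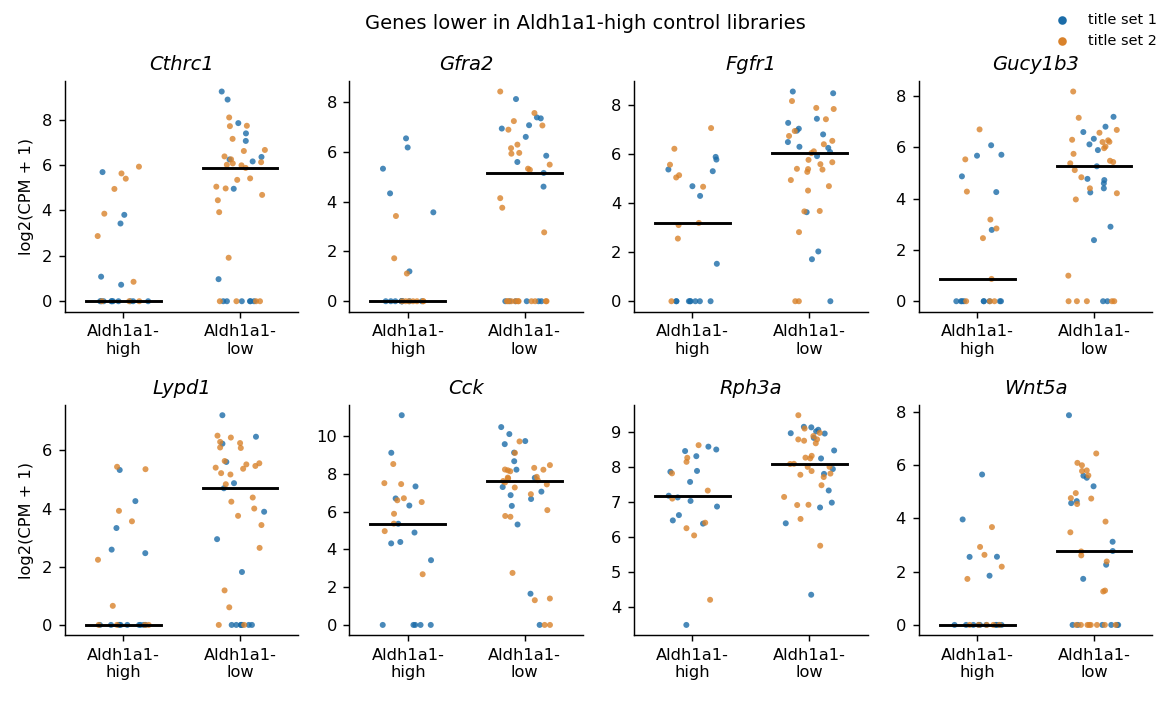
CPM of 8 genes called lower, as log2(CPM + 1) on the vertical axis, in the 25 Aldh1a1-high and 41 Aldh1a1-low control libraries. Each point is a library coloured by title set and the bar is the side's median; the medians of Cthrc1, Gfra2, Lypd1 and Wnt5a are 0 in high libraries and above 0 in low ones.

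The 38 experiment libraries share no sample with the controls, and the same threshold divided them into 16 high and 22 low. There the low side had less Th and more of other cells' markers. The median of Th was 6770 CPM in high and 4639 in low libraries, that of summed GABAergic markers 184 and 745, and that of summed glial markers 1815 and 2402. In the experiment libraries the median log2 ratios of the GABAergic, astrocyte and oligodendrocyte lists were -2.46, -1.45 and -1.49. Libraries with less than 1000 CPM of Slc6a3 numbered 7 of 22 on the low side and 0 of 16 on the high side.

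Of the 14 lower genes 13 stood lower there too by both weightings, against 46.8% of all expressed genes, and 8 were at least 1.5-fold lower, against 20.9%. Of the 14 higher genes 5 stood higher, 35.7%, which is near the 39.2% of all expressed genes. At least 1.5-fold higher were 3 of them, 21.4%, against 14.3% of all expressed genes. Without the experiment libraries below 1000 CPM of Slc6a3, which left 16 high and 15 low, 10 of the 14 lower genes stood lower, against 45.3% of all expressed genes, and 5 of the 14 higher genes stood higher, against 39.7%. Without those highest in glial markers, which left 12 and 12, the numbers were 11, against 47.4%, and 4, against 38.9%. The part of these differences in Th, Slc6a3 and other cells' markers in the gene ratios was not tested. The 5 higher genes were Aldh1a7, Lmo3, Chrna6, Serpine2 and Stmn1. Lmo3 stood at 492 against 99.9 CPM and was above in 97.2% of pairs. Aldh1a7 stood at 250 against 16.5 CPM, and Chrna6 had a ratio of 1.53. Anxa1 was counted in 11 of 16 high libraries with 6600 counts, and in 1 of 22 low libraries with 4. Among lower genes Gas7, Cobl, Wnt5a, Syn2, Fstl1, Cthrc1 and Gucy1b3 had ratios of 0.071, 0.116, 0.166, 0.179, 0.197, 0.206 and 0.307. The Wnt5a ratio rests on 8 and 83 counts, in 3 of 16 high and 5 of 22 low libraries. In 46.2% of pairs the high library had more Wnt5a, near no preference. Experiment title 2 held 58.9% of the low counts of Fstl1.

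Other genes went apart between the groups. Gfra1 had a pooled ratio of 0.570 in experiment libraries, 1.49 by equal weights, and Pcp4, Igfbp5 and Samd14 had 0.732, 0.697 and 0.691. Lypd1 had 1.09 and Calb2 1.71 there, against 0.578 for Cck. Over all called genes 229 of the 560 higher, 40.9%, and 332 of the 670 lower, 49.6%, kept their direction by both weightings. Of all expressed genes 39.2% stood higher and 46.8% lower. At least 1.5-fold in that direction stood 124 of the higher genes (22.1%) and 213 of the lower (31.8%). The shares of all expressed genes past 1.5-fold were 14.3% and 20.9%. The difference between the groups was not tested.

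**Figure D5:**
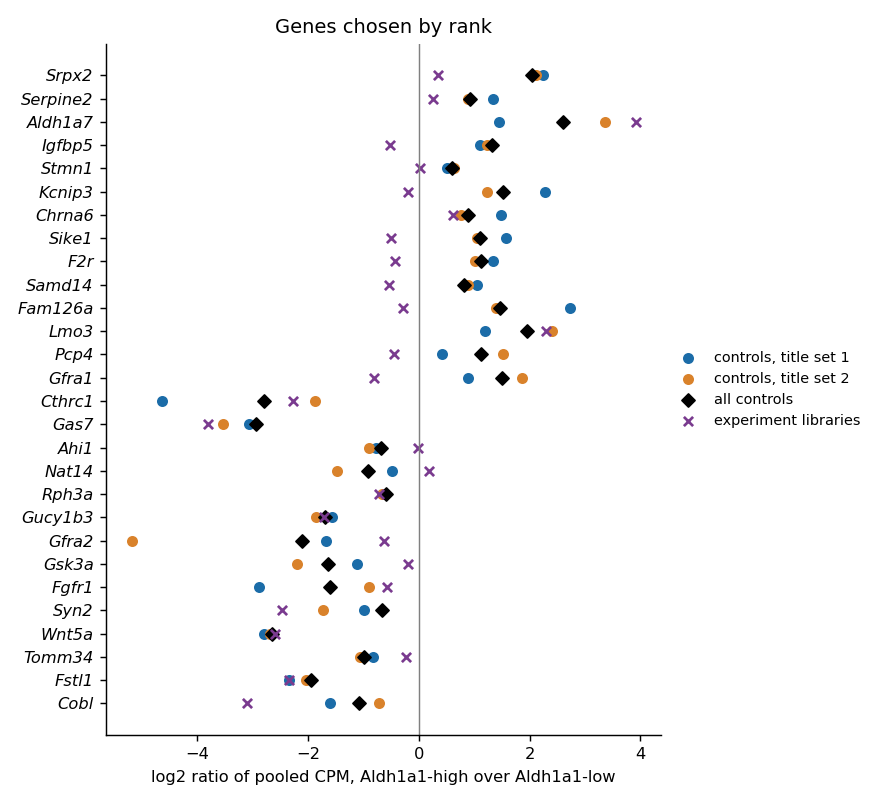
Log2 ratio of pooled CPM, Aldh1a1-high over Aldh1a1-low, on the horizontal axis for the 14 higher and 14 lower genes chosen by rank. Black diamonds are all controls, circles the title sets and crosses the experiment libraries, which were not used to choose the genes. The crosses of Aldh1a7, Lmo3 and Chrna6 lie right of 0.5, and those of Gas7, Cobl, Wnt5a, Syn2, Fstl1 and Cthrc1 left of -2. The cross of Wnt5a rests on 8 counts in high and 83 in low libraries.

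Of 27 listed dopaminergic identity genes 25 were expressed. Called higher were 4 (16%) and lower 1 (4%), beside 6.16% and 7.37% of all expressed genes. Across the 25 genes the log2 ratios had a median of -0.02. The median was 0.23 in title set 1, -0.002 in set 2 and 0.39 in experiment libraries, where 17 of the 25 genes stood higher by pooled CPM. Beside Chrna6 and Gfra1, the transcription factor Ebf3 was higher, at 32.3 against 16.1 CPM. Lmx1b, a transcription factor of dopaminergic development, was lower, with a ratio of 0.452. In experiment libraries it stood at 23.4 against 4.25 CPM.

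Enzymes of aldehyde and amine metabolism did not stand apart as a group. Of 14 expressed genes of 22, 2 (14.3%) were called higher and 1 (7.14%) lower, beside 6.16% and 7.37% of all expressed genes. Aldh2, the mitochondrial aldehyde dehydrogenase, was lower at 7.17 against 28.6 CPM but had a log2 ratio of 0.67 among libraries with more genes detected. Maoa, monoamine oxidase A, had 0.684 and was not called. In the retinoid list 8 of 23 genes were expressed, with 1 (12.5%) higher and 4 (50%) lower. Rbp4, the retinol-binding protein of plasma, was counted in 14 of 25 high and 9 of 41 low libraries, with a ratio of 3.94. It passed the filter's share of libraries only through the high side. Cyp26b1, which degrades retinoic acid, had 48 counts in high and 945 in low libraries, a ratio of 0.085. Without control titles 53 and 47, the highest of each side, it was 0.047. The nuclear receptors Rxrb and Rxrg had 0.303 and 0.334, and Dhrs3, a retinal reductase, 0.560. Rxrg and Dhrs3 changed direction in some settings: among libraries with more genes detected Rxrg had a log2 ratio of 1.19, and at a threshold of 250 CPM Dhrs3 had 0.25. Control title 54 held 83.8% of the Rxrg counts of the high side. The receptors Rara, Rarb, Rarg and Rxra did not pass the filter.

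Channel and receptor lists differed in their share of called genes. Of 17 calcium channel genes 0 were called higher and 5 (29.4%) lower, beside 7.37% of all expressed genes, and the 5 are auxiliary subunits. Cacna2d3, an alpha2delta subunit, stood at 61.2 against 121 CPM, and the gamma subunits Cacng2, Cacng4 and Cacng5 had ratios of 0.557, 0.425 and 0.379. Of 33 potassium and HCN channel genes 2 (6.06%) were higher and 2 (6.06%) lower. Kcna6 had 1.89 and Abcc8, the sulfonylurea receptor of ATP-sensitive potassium channels, 2.23. Of 17 glutamate receptor genes 1 (5.88%) was higher and 4 (23.5%) lower. Grm5, a metabotropic receptor, had 1.84 and Gria1, an AMPA receptor subunit, 0.584. Among 15 other G protein-coupled receptors Chrm5, a muscarinic receptor of dopaminergic neurons, had 2.39. Chrm5 stood the other way in experiment libraries, at 3.52 against 32.1 CPM.

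Adhesion and guidance genes numbered 55 expressed, of which 7 (12.7%) were called higher and 4 (7.27%) lower, beside 6.16% and 7.37% of all expressed genes. The semaphorin co-receptor Plxna2, the teneurin Tenm2 and the ephrin Efna5 had ratios of 3.02, 2.52 and 2.30, and the netrin receptor Unc5d 0.192. Of 15 peptide genes 0 were higher and 4 (26.7%) lower. Cartpt, the CART peptide, stood at 23.8 against 411 CPM, but control title 15 held 88.4% of the low counts, and without the highest library of each side the ratio was 0.415.

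Immediate early genes, which are induced by activity and by handling, stood lower in part. Of 20 expressed genes 0 were called higher and 7 (35%) lower, beside 7.37% of all expressed genes, with a median log2 ratio of -0.41, and -0.25 and -0.65 within the sets. Arc, a synaptic plasticity gene, was counted in 7 of 25 high and 18 of 41 low libraries, with a ratio of 0.274. Without control titles 8 and 4, the highest of each side, it was 0.143. Egr4, a transcription factor, and Gadd45b, a stress-induced gene, had 0.343 and 0.486. In experiment libraries the median of the list was -1.12, and 4 of the 20 genes stood higher by pooled CPM. The experiment low side also had less Th and more GABAergic and glial markers, as given above, and their part in that value was not tested.

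Genes of the mitochondrial genome were lower as a group in control libraries. Of 13 genes 8 passed the filter and 7 (87.5%) were called lower, beside 7.37% of all expressed genes. The median log2 ratio was -0.66, with -0.88 in title set 1 and -0.38 in set 2. mt-Cytb, of complex III, ran from 301 through 3346 to 8216 CPM in high and from 389 through 5850 to 20771 in low libraries. The complex I subunits mt-Nd5, mt-Nd2 and mt-Nd4 had ratios of 0.608, 0.601 and 0.629. In experiment libraries the median was 0.02. Nuclear-encoded respiratory genes gave no call among 66, and neither did the 19 glycolytic and 26 Parkinson disease genes. Of all expressed genes 6.16% were called higher and 7.37% lower. Among the 4084 genes with a pooled CPM of at least 50, the calls were 89 and 119.

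Markers of other cells differed by list. Of 14 microglial markers 8 were expressed, and all 8 stood lower by both weightings. Called lower were 4 (50%), beside 7.37% of all expressed genes. Ratios were 0.136 for the receptor Csf1r, 0.161 for the complement gene C1qc and 0.225 for the protease Ctss. Their summed CPM ran from 3.27 through a median of 130 to 525 in high libraries and from 0 through 168 to 3465 in low ones. The medians in title set 1 were 76.2 and 62, and those in set 2 were 164 and 296. Csf1r stood higher among controls 15 to 37 (log2 ratio 0.37). Control titles 45 and 57 were the highest of each side in Ctss, and without them its ratio was 0.126. Tmem119, a defining microglial gene, was at 0 in all high libraries and counted in 7 low ones. The part of microglial RNA in the genes called lower was not tested. Without the 17 libraries highest in glial markers, 785 genes were called lower, 422 of them among the 670, and 705 higher, 358 of them among the 560.

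Of 10 expressed astrocyte markers 2 (20%) were called higher and 2 (20%) lower, beside 6.16% and 7.37% of all expressed genes. By both weightings 8 stood higher and 2 lower. Their median log2 ratio was 0.68, with -0.25 in title set 1 and 1.15 in set 2. The water channel Aqp4 and the transcription factor Sox9 had 7.18 and 4.20, and the filament gene Gfap 0.048. Without those 17 libraries, Aqp4 and Sox9 stood lower (log2 ratios -1.34 and -0.64). Control titles 45 and 15 were the highest of each side in Sox9, and without them its ratio was 2.35. The summed astrocyte CPM ran from 34.5 to 2428 in high and from 12.3 to 1883 in low libraries. Of 9 oligodendrocyte genes Cldn11, a myelin claudin, was called higher at 88.5 against 2.65 CPM, but stood lower among controls 15 to 37 (log2 ratio -2.21). By both weightings 7 of the 9 stood higher and 0 lower. Their median log2 ratio was 0.76, with -0.45 in title set 1 and 3.50 in set 2. The summed oligodendrocyte CPM ran from 109 to 10175 and from 38.7 to 9820. GABAergic markers gave no call among 4 genes, and Gad1 had 1.02. No vascular or blood gene passed the filter.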

How the data were processed

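Patch-seq RNA of single neurons was amplified by Smart-seq2 (per the labels' protocols). Counts, whole reads per gene, were deposited by the authors for 104 libraries, and the submitters' processing notes name STAR 2.5.3a, featureCounts 1.5.3 and mm10. Annotation and strand setting are not stated there, so overlapping genes cannot be told apart. The table held 45808 gene rows and 92 spike-in rows, which were left out of totals. No 2 libraries had identical counts, and all were kept.

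The members, the 32 gene lists and the rules were chosen with earlier results of these data known. Expressed genes had a pooled CPM of at least 10 over controls and a count in at least 25% of the libraries of either side. A gene could therefore pass only through the side where it stood higher. Side sums below 3 counts were raised to 3 for ratios. Intervals come from exact binomial splits. Named were the 14 called genes per direction ranked by pair share (gene models, pseudogenes, ribosomal, mitochondrial, haemoglobin and sex-linked marker genes left out), the subtype, aldehyde and retinoid lists, Th, Slc6a3, Slc18a2 and Ddc, and up to 4 genes per other list by ratio. Results for some genes of these lists are not reported here. Tmem119 and genes below the filter were named after their values were seen. Because the sets held different shares of each side, a pooled ratio can lie outside both set ratios. The division of experiment titles into sets, at number 36, rests on record order. Positions are from GENCODE on GRCm38. Python 3.11.15, pandas 2.3.3, scipy 1.17.1 and edgeR 4.0.16 (TMM only) were used, and the calling script was tested on simulated data.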

Additional observations from a re-analysis of the deposited data

How the results depend on the processing

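The counts of called genes, 560 higher and 670 lower, moved with the settings. They were 1472 and 1319 in title set 1 alone, 1009 and 1420 in set 2 alone and 1631 and 1502 in controls 15 to 37 alone, where no agreement between sets was asked. They were 89 and 119 at a pooled CPM of at least 50 (4084 genes), 1388 and 1725 at 1 (14038 genes), and 171 and 236 at 2-fold. Mean log2(CPM + 1) gave 1324 and 1029, TMM scaling 881 higher, and libraries with fewer genes detected, 7 high and 23 low, 1395 lower. The log scale and TMM scaling did not ask for agreement of both weightings. Mean library CPM alone, which did not ask for it either, gave 772 and 882. What else moved the counts was not tested. The dopaminergic median was 0.23 in title set 1 and 0.24 in controls 15 to 37, and the dorsal-tier median 1.32 in libraries with more genes detected.

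Single genes were rerun under 17 alternatives. For called genes the call itself fixed the direction under 4 of them (each weighting and each title set alone), and the other 13 reuse the same libraries. Among the 74 called genes named in the text, those that turned, as log2 ratios, were Adcyap1 (0.29 at a threshold of 1000 CPM, 1.79 with more genes detected, 2.90 without libraries low in Slc6a3), Dhrs3 (0.25 at 250 CPM and 0.25 with fewer genes detected), Syn2 (0.12 at 1000 CPM), Samd14 (-0.085 with fewer genes detected), and Aldh2 and Rxrg (0.67 and 1.19 with more genes detected). Without the 17 libraries highest in glial markers Aqp4 was at -1.34 and Sox9 at -0.64. In controls 15 to 37 Tacr3 was at 0.77, Csf1r at 0.37, Sox9 at -1.76 and Cldn11 at -2.21. The splits by genes detected, by Slc6a3 and by title block were chosen after seeing the data. The number of the 28 ranked genes that kept their direction in experiment libraries, 18, ran from 15 to 23. At single-neuron depth many genes are at 0 in most libraries, so a median of 0 does not show absence. No paired analysis was possible because the sides share no numbered pairs and the result comes from no test.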

Other observations

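Beyond the lists already described, most groups of genes stood level. Of 44 lysosomal and autophagy genes 3 were called higher and 1 lower, of 43 synaptic vesicle genes 1 and 2, of 34 cytoskeletal genes 1 and 2, of 32 antioxidant genes 1 and 1, of 26 stress genes 0 and 1, and of 12 GABA receptor genes 1 and 1. Of 25 calcium-binding and calcium transport genes, 3 (12%) were higher, Kcnip3 among them, and 3 (12%) lower, Calb2 among them. Over all expressed genes the shares were 6.16% higher and 7.37% lower. In both title sets the median log2 ratio of the lysosomal list lay at 0.11, beside 0.004 and -0.04 for all expressed genes, and in experiment libraries it lay at 0.23. These medians are descriptions of these libraries and were not tested.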
